A study of Homo sapiens with 4 samples.

Results

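HepG2-Bcl-2 cells were compared with HepG2-vector cells, the pair of lines without Twist1, on miRNA microarrays. All miRNAs with a normalized intensity of 32 or more in either line were described, which gave 302 of the 1212 miRNAs on the array. HepG2 is an established human liver cancer cell line. HepG2-Bcl-2 stably carried the pcDNA-Bcl-2 plasmid. HepG2-vector is named for a vector in its title, but its label gives no transfection construct. The study also held HepG2-Twist1, with pcDNA-Twist1, and HepG2-Twist1/Bcl-2, with both plasmids. Each line gave 1 sample, and whether a stable line was 1 clone or a pool is not given in the sources used here. HepG2-vector was labelled with Cy3 on array 1, beside HepG2-Twist1 in Cy5, and HepG2-Bcl-2 was labelled with Cy5 on array 2, beside HepG2-Twist1/Bcl-2 in Cy3. The construct, the array and the dye therefore changed together between HepG2-vector and HepG2-Bcl-2, and their parts cannot be told apart. The array measured miRNAs and not mRNA, so the level of BCL2 itself was not checked.

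Bcl-2 is a protein of the mitochondrial outer membrane that restrains apoptosis. A miRNA is a short RNA that lowers the output of mRNAs it pairs with, mainly through the bases called the seed, bases 2 to 8 from its 5′ end. A hairpin precursor yields a strand from each arm, named 5p and 3p, and often only 1 of them accumulates. Several miRNAs, among them members of the miR-15/16 family, are known to pair with the BCL2 mRNA, and others, such as miR-146a and miR-155, are known from immune and stress signalling.

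Because every line had a single sample, no test between lines was possible, and miRNAs were called by size. A miRNA was called higher or lower where the values differed at least 2-fold, with values under 32 set to 32. The spread after a log2 difference combines the log2 SDs of the 3 repeat spots of both lines (root of summed squares). Spots under 32 were set to 32 for it. This spread covers spot-to-spot error within the hybridizations, not the difference between cultures.

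Of the 302 miRNAs, 20 were called higher in HepG2-Bcl-2 (6.62%) and 29 were called lower (9.6%). The remaining 253 lay within 2-fold, and 197 of the 302 lay within 1.5-fold. The median log2 difference was -0.05 over all 302. It was -0.04 over the 131 that reached 100 in both lines, where the SD of the log2 differences was 0.73 and the median spot SD of a difference was 0.19. The higher miRNAs were led by miR-146a-5p, miR-200b-3p and miR-146b-5p, all under 32 in HepG2-vector, and by miR-424-5p, miR-1246 and miR-3613-3p. The lower ones were led by miR-140-3p, and many of them were rich in G and C.

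The targets of the probes are shown next for the 15 largest differences in each direction among the called miRNAs whose repeat spots did not overlap, as the array listed them and in order of size, with the seed in capitals. They show which miRNAs share a seed and how base composition varied among them. Those higher in HepG2-Bcl-2 come first.
miR-146a-5p: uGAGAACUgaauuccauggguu
miR-200b-3p: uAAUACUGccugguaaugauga
miR-424-5p: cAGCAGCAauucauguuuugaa
miR-1246: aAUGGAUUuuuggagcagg
miR-146b-5p: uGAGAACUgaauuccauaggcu
miR-3613-3p: aCAAAAAAaaaagcccaacccuuc
miR-155-5p: uUAAUGCUaaucgugauaggggu
miR-1181: cCGUCGCCgccacccgagccg
miR-10a-5p: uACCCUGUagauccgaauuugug
miR-4258: cCCCGCCAccgccuugg
miR-424-3p: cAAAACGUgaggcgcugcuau
miR-4298: cUGGGACAggaggaggaggcag
miR-29a-3p: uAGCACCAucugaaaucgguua
miR-29c-3p: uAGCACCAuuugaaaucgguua
miR-365a-3p/miR-365b-3p: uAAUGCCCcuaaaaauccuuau

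Of the 15 that were lower, 13 with a RefSeq entry are shown, and miR-575 and miR-186 are named only.
miR-140-3p: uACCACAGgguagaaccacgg
miR-1281: uCGCCUCCuccucuccc
miR-191-3p: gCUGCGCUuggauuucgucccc
miR-378a-3p: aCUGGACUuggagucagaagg
miR-197-3p: uUCACCACcuucuccacccagc
miR-1260b: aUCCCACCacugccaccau
miR-1307-3p: aCUCGGCGuggcgucggucgug
miR-330-3p: gCAAAGCAcacggccugcagaga
miR-940: aAGGCAGGgcccccgcucccc
miR-423-5p: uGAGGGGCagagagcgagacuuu
miR-193b-3p: aACUGGCCcucaaagucccgcu
miR-149-3p: aGGGAGGGacgggggcugugc
miR-532-5p: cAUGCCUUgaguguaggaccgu

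miR-146a-5p and miR-146b-5p share the seed GAGAACU and differed over 22 bases by G18A and U21C, with miR-146a-5p as the first base and positions counted from its 5′ end. miR-29a-3p and miR-29c-3p share the seed AGCACCA and differed by C10U. Cross-hybridization between such near-identical miRNAs was not tested. miR-424-5p has the seed AGCAGCA of the miR-15/16 family. Of the 5 measured miRNAs with that seed, 1 was called higher and 0 lower, beside 6.62% and 9.6% of all 302.

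**Figure D1:**
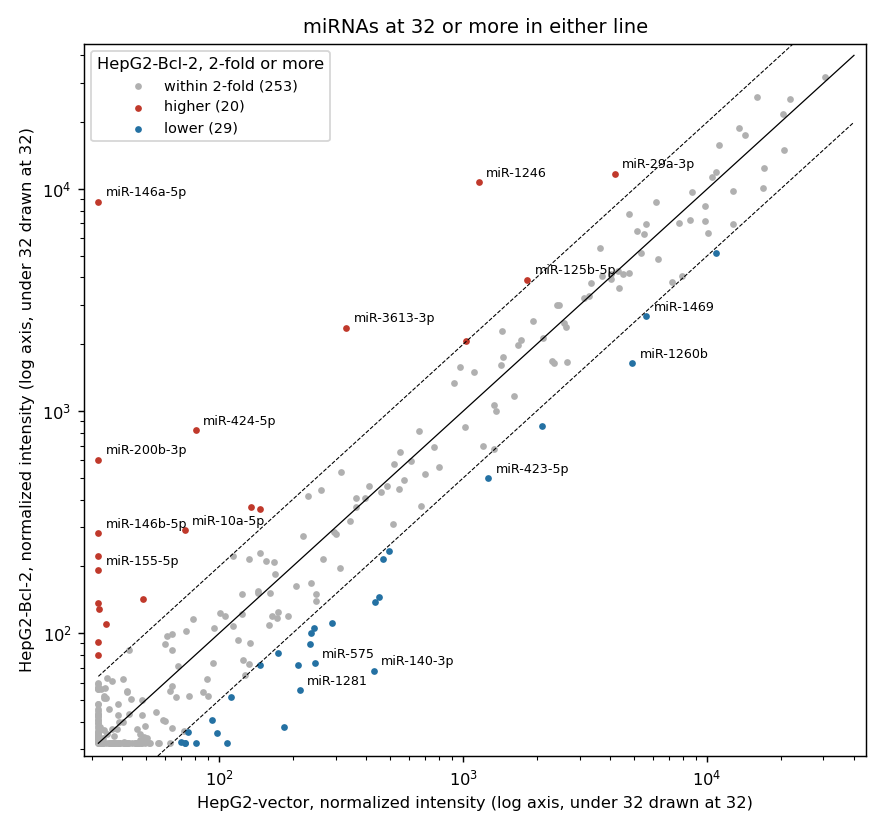
Normalized intensity of each of the 302 miRNAs in HepG2-vector (x axis, log scale) and HepG2-Bcl-2 (y axis, log scale), with values under 32 drawn at 32; the solid line marks equal values and the dashed lines a 2-fold difference. Most points lie between the dashed lines, while miR-146a-5p stands at the left edge at 8763 in HepG2-Bcl-2.

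The largest difference was that of miR-146a-5p, a miRNA known to be induced by NF-κB and to dampen immune signalling. The normalized intensity of miR-146a-5p was 3.19 in HepG2-vector and 8763 in HepG2-Bcl-2, beside 4.66 in HepG2-Twist1 and 1.91 in the line with both plasmids. It was at least 274-fold higher in HepG2-Bcl-2 than in HepG2-vector. In the scanner values the 3 spots of HepG2-vector read 100.47 to 106.99, within the range of the 40 empty spots of that channel (87.4 to 183). The 3 spots of HepG2-Bcl-2 read 6382, 6476 and 7201, where the empty spots reached at most 68.1. The 3 spots were all bright in HepG2-Bcl-2, and the deposited values of all other lines were under 32. The gene, MIR146A, lies at chr5:160485372-160485393 on the plus strand (GRCh38.p14, RefSeq, as for all positions here) within the lncRNA gene MIR3142HG. The other strand of the hairpin, miR-146a-3p, was at 0.44 in HepG2-vector and 8.33 in HepG2-Bcl-2, under 32 in both.

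miR-146b-5p, which comes from another gene at chr10:102436520-102436542, was at 9.18 in HepG2-vector and 283 in HepG2-Bcl-2, beside 12.8 in HepG2-Twist1 and 1.76 in the line with both plasmids, at least 8.85-fold higher than in HepG2-vector. miR-155-5p, a miRNA of activated immune cells that is also counted as oncogenic, was at 8.21, 192, 5.97 and 14.5 in the same order of lines, at least 5.99-fold higher. Its gene lies at chr21:25573983-25574006 in the span of the lncRNA gene MIR155HG. As with miR-146a-5p, HepG2-Bcl-2 was the only one of the 4 lines at 32 or more for both miRNAs. The 3 spots of HepG2-Bcl-2, after background subtraction and scaled to the deposited value, were at 232 to 328 for miR-146b-5p and at 179.7 to 212 for miR-155-5p.

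These 3 belonged to a list of 6 stress and inflammation miRNAs, of which 3 were called higher and 0 lower, where 6.62% of all 302 were higher and 9.6% lower, with a median log2 difference of 1.37. The other members were miR-132-3p at 519 and 581 in HepG2-vector and HepG2-Bcl-2, miR-212-3p at 133 and 72.9, and miR-210-3p, a miRNA induced by hypoxia, at 52.0 and 29.0. None of these last 3 differed 2-fold. The list was chosen with these results known, and its count carries no test. Markers of blood cells were low beside them. Of 6 blood cell miRNAs, only miR-486-5p reached 32, at 48.3 in HepG2-vector and 50.1 in HepG2-Bcl-2, and the summed levels of the list were 80.1 and 101. miR-142-3p, a defining miRNA of blood cells, was at 5.44 and 7.89, and miR-223-3p, a myeloid miRNA, at 20.45 and 20.7.

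miR-200b-3p, a miRNA of epithelial cells that represses the EMT factors ZEB1 and ZEB2, was at 3.97 in HepG2-vector and 606 in HepG2-Bcl-2, beside 2.95 in HepG2-Twist1 and 6.81 in the line with both plasmids. It was at least 18.9-fold higher in HepG2-Bcl-2 than in HepG2-vector, with spots at 463 to 704 in HepG2-Bcl-2. Its gene lies at chr1:1167160-1167181 on the plus strand, within the lncRNA gene MIR200BHG, in 1 cluster with MIR200A, whose 3p strand starts 756 bases away, and MIR429, 1895 bases away. miR-200a-3p was at 4.99 in HepG2-vector and 55.9 in HepG2-Bcl-2, above 32 in HepG2-Bcl-2 alone of the 4 lines but under 2-fold above that minimum. miR-429 was at 12.03 and 23.15, under 32 in both. miR-200c-3p and miR-141-3p, the members of the family encoded elsewhere, were at 23.8 and 34.7, and at 3.16 and 10.5. Of the 5 members of the miR-200 family, 3 were measured, 1 was called higher and 0 lower, beside 6.62% and 9.6% of all 302.

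miR-424-5p was at 80.3 in HepG2-vector and 819.6 in HepG2-Bcl-2, beside 55.0 in HepG2-Twist1 and 16.4 in the line with both plasmids. HepG2-Bcl-2 was 10.2-fold higher than HepG2-vector (log2 3.35 ± 0.82, combined SD of the spots of both). The spots of miR-424-5p were at 39.6 to 105 in HepG2-vector and 655 to 923 in HepG2-Bcl-2 and did not overlap. The other strand of the same hairpin, miR-424-3p, went the same way, from 34.5 to 111 (3.21-fold). MIR424 lies at chrX:134546680-134546701 on the minus strand. Its neighbour MIR503, whose 5p strand starts 309 bases away, gave miR-503-5p at 64.3 and 84.5, a log2 difference of 0.39. miR-450b-5p of the same cluster was called lower (72.7 and 4.50), but 1 of its 3 spots in HepG2-vector carried the value, at 229.9, and the other 2 were under 32. The remaining probes of this cluster, miR-450a-5p, miR-450b-3p, miR-542-3p and miR-542-5p, were under 32 in both lines.

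The miR-29 family, which represses collagen and other matrix genes and the DNA methyltransferases, had 3 measured members of 3, with 2 called higher and 0 lower, beside 6.62% higher and 9.6% lower of all 302. miR-29a-3p was at 4178 in HepG2-vector and 11728 in HepG2-Bcl-2, beside 4595 in HepG2-Twist1 and 1761 in the line with both plasmids, a 2.81-fold difference (log2 1.49 ± 0.23). miR-29c-3p was at 135, 371, 118 and 22.5 in the same order, a 2.76-fold difference (log2 1.46 ± 0.63). miR-29b-3p was at 42.7 in HepG2-vector and 43.2 in HepG2-Bcl-2. This last strand can come from MIR29B1, 719 bases from MIR29A on chromosome 7, or from MIR29B2, 585 bases from MIR29C on chromosome 1. miR-29b-2-5p was called higher, but 1 spot of HepG2-Bcl-2 was at 670 and the other 2 were under 32.

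miR-10a-5p, which lies among the HOXB genes (chr17:48579904-48579926, minus strand, within HOXB3), was at 72.2 in HepG2-vector and 291 in HepG2-Bcl-2, beside 82.4 in HepG2-Twist1 and 200.5 in the line with both plasmids, a 4.03-fold difference (log2 2.01 ± 0.29). Its relative miR-10b, with the same seed and the difference U12A, was at 18.3 and 56.7 in HepG2-vector and HepG2-Bcl-2. miR-1246, a name given to a short RNA that also matches the small nuclear RNA U2, was at 1159.8, 10769, 483 and 14413 in the same order of lines as miR-10a-5p, a 9.29-fold difference (log2 3.21 ± 0.18). miR-3613-3p was at 332, 2378, 186 and 2624, a 7.17-fold difference with a wide spread (log2 2.84 ± 1.42), since its spots in HepG2-Bcl-2 ran from 702 to 3635 and those in HepG2-vector from 205 to 480.2. Unlike miR-146a-5p, these 3 were also higher in the line with both plasmids than in HepG2-Twist1. Both lines with the Bcl-2 plasmid were on the same array, so the array and Bcl-2 cannot be told apart here.

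Other miRNAs were nearer to the 2-fold line. miR-125b-5p, which is known to repress p53, was at 1834 in HepG2-vector and 3916 in HepG2-Bcl-2 (log2 1.09 ± 0.14). miR-221-3p, which represses the cell cycle inhibitor p27, was at 1033 and 2074, just past the 2-fold line (log2 1.01 ± 0.18). Its neighbour miR-222-3p, with the same seed, was at 2473 and 2995 (log2 0.28). The probe shared by miR-365a-3p and miR-365b-3p was at 147 and 362 (log2 1.31 ± 0.50). The remaining higher miRNAs were dim in HepG2-vector. miR-1181, miR-4258 and miR-4298 were at 31.4 to 48.9 there and at 128 to 143 in HepG2-Bcl-2, with spots that did not overlap. miR-1181 was under 32 in HepG2-vector, so 32 stood for each of its spots there. miR-4307 and miR-1233-3p were carried by 1 bright spot each, at 289 and 211, with the other 2 spots under 32.

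**Figure D2:**
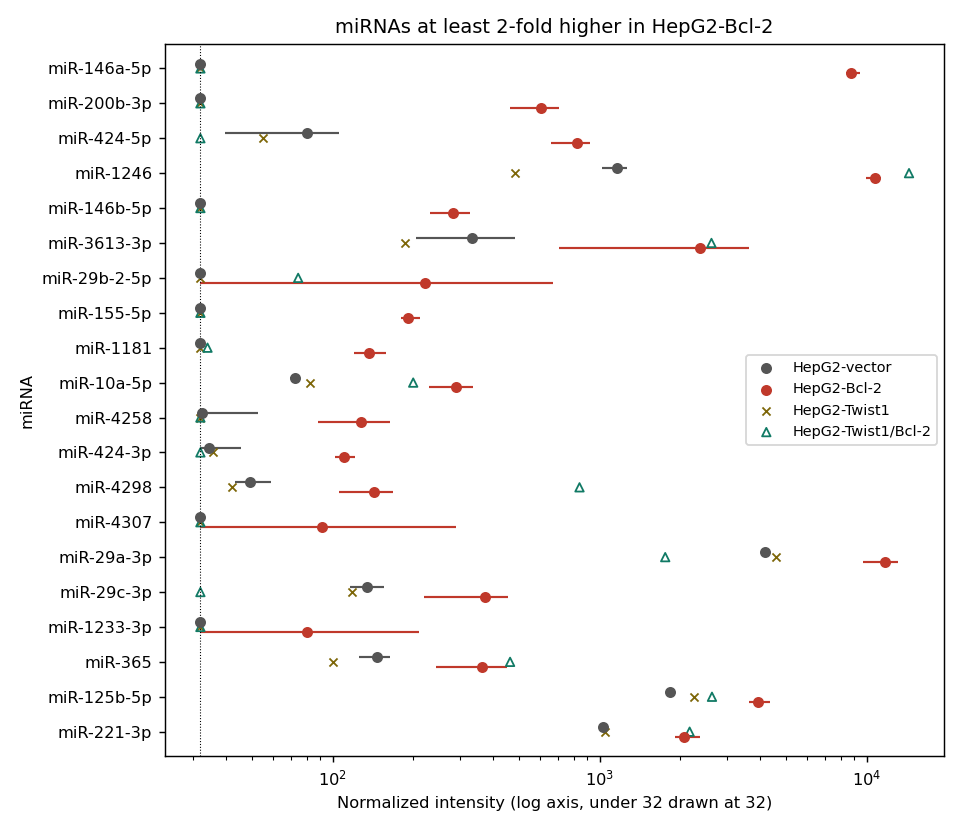
Normalized intensity (log axis, under 32 drawn at 32) of the 20 miRNAs at least 2-fold higher in HepG2-Bcl-2, in all 4 lines; filled points are the deposited values of HepG2-vector and HepG2-Bcl-2 and the lines through them run from the lowest to the highest of the 3 repeat spots, while crosses are HepG2-Twist1 and open triangles the line with both plasmids. For miR-146a-5p, miR-200b-3p, miR-146b-5p and miR-155-5p, the other 3 lines sit at 32, and for miR-29b-2-5p, miR-4307 and miR-1233-3p the spots reach down to the values of HepG2-vector.

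Across the 20 higher miRNAs, 17 had repeat spots that did not overlap between HepG2-vector and HepG2-Bcl-2 (5.63% of the 302). Many uncalled miRNAs had spots apart too, such as miR-26a-5p, let-7a-5p and miR-92a-3p at log2 differences of 0.69, 0.30 and 0.16. The share of all 302 with spots apart is not given here, so the 17 have no background to be read beside. A bound in place of a fold was given for 8 of the 20 because HepG2-vector was under 32. For these bounds, 32 stood for each HepG2-vector spot, so only the spots of HepG2-Bcl-2 had a spread to compare. Of the 20, 10 were under 32 in HepG2-Twist1/Bcl-2 and 6 were under 32 in all lines but HepG2-Bcl-2. The 6 were miR-146a-5p, miR-200b-3p, miR-146b-5p, miR-155-5p, miR-4307 and miR-1233-3p. In all, 43 miRNAs were at 32 or more in HepG2-Bcl-2 and under 32 in HepG2-vector, and 48 were the other way round. Of the 43, 35 were under 64 in HepG2-Bcl-2, which is too close to the minimum for a call. Of the 48, 44 were under 64 in HepG2-vector.

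The largest decrease was that of miR-140-3p, a miRNA best known from cartilage, whose gene lies within WWP2 (chr16:69933142-69933162, plus strand). It was at 430.4 in HepG2-vector and 67.9 in HepG2-Bcl-2, beside 104 in HepG2-Twist1 and 123 in the line with both plasmids, 6.34-fold lower in HepG2-Bcl-2 than in HepG2-vector (log2 -2.67 ± 0.21). HepG2-vector stood apart from all other lines, with spots at 406 to 468. miR-140-5p was under 32 in both lines, at 4.74 and 8.19.

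miR-378a-3p, which is processed from within PPARGC1B, a regulator of energy metabolism, was at 436 in HepG2-vector and 139 in HepG2-Bcl-2, beside 306 in HepG2-Twist1 and 260.5 in the line with both plasmids (3.14-fold lower, log2 -1.65 ± 0.18). miR-197-3p was at 450.45, 146, 440.2 and 235 in the same order (3.09-fold lower, log2 -1.63 ± 0.13). miR-423-5p was at 1269, 498, 1281 and 1016 (2.55-fold lower, log2 -1.35 ± 0.06). For these 3 miRNAs HepG2-Bcl-2 had the lowest value of the 4 lines, and the spots of HepG2-vector and HepG2-Bcl-2 did not overlap.

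miR-532-5p was at 239 in HepG2-vector and 100.45 in HepG2-Bcl-2 (2.38-fold lower), and miR-186 at 235 and 89.7 (2.62-fold lower). miR-575 was at 247 and 73.6 (3.36-fold lower) and miR-1281 at 214 and 55.6 (3.85-fold lower). Both of these were also low in HepG2-Twist1/Bcl-2, at 20.95 and 26.2, against 242 and 354 in HepG2-Twist1. miR-1307-3p was at 210.2 and 72.1 (2.92-fold lower), and miR-330-3p at 98.4 and 35.7 (2.75-fold lower).

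Several of the lower miRNAs were very rich in G and C. miR-149-3p was at 2112 in HepG2-vector and 857 in HepG2-Bcl-2 (log2 -1.30 ± 0.22), with a G and C share of 76.2%. miR-1469 was at 5646 and 2672 (log2 -1.08 ± 0.13), with a share of 90.9%. miR-940 was at 290.4 and 111 (log2 -1.39 ± 0.28), with a share of 81.0%, and miR-602 and miR-3621 had shares of 78.3% and 80.0% with log2 differences of -1.22 and -1.08. With a straight line on G and C share removed, an alternative added after the data were seen, all 5 lay within 2-fold, at -0.67 for miR-149-3p, -0.08 for miR-1469, -0.64 for miR-940, -0.53 for miR-602 and -0.35 for miR-3621.

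miR-191-3p was at 108 in HepG2-vector and 20.5 in HepG2-Bcl-2, at least 3.37-fold lower, while the other strand of its hairpin, miR-191-5p, was at 8515 and 7269. let-7b-3p fell by 1.05 on the log2 scale, from 74.3 to 35.9, and the other strand let-7b-5p was at 7689 and 7034. miR-19b-3p, which belongs to the miR-17/92 clusters that favour cell growth, was at 471 in HepG2-vector and 216 in HepG2-Bcl-2, beside 163 in HepG2-Twist1 and 75.9 in the line with both plasmids (2.18-fold lower). miR-193b-3p was at 80.5 and 29.9 in HepG2-vector and HepG2-Bcl-2, at least 2.52-fold lower, although MIR193B lies 5323 bases from MIR365A on chromosome 16, whose 3p strand (or that of MIR365B) was called higher.

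The other lower miRNAs with spots that did not overlap were miR-1260b and miR-1280, described with the tRNA-like entries, and miR-4286, miR-324-5p, miR-345-5p, miR-331-3p and miR-612, with log2 differences from -1.20 to -1.04. miR-3124-5p, miR-3713 and miR-450b-5p owed their values in HepG2-vector to 1 bright spot each, at 516, 202 and 229.9, with the other 2 spots of each under 32. In total, 26 of the 29 lower miRNAs had repeat spots that did not overlap (8.61% of the 302). Many uncalled miRNAs had spots apart too, such as miR-27a-3p and miR-24-3p at log2 differences of -0.44 and -0.22. The 26, too, have no background to be read beside. Of the 29, 4 had a bound because HepG2-Bcl-2 was under 32, and 32 then stood for each of its spots.

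**Figure D3:**
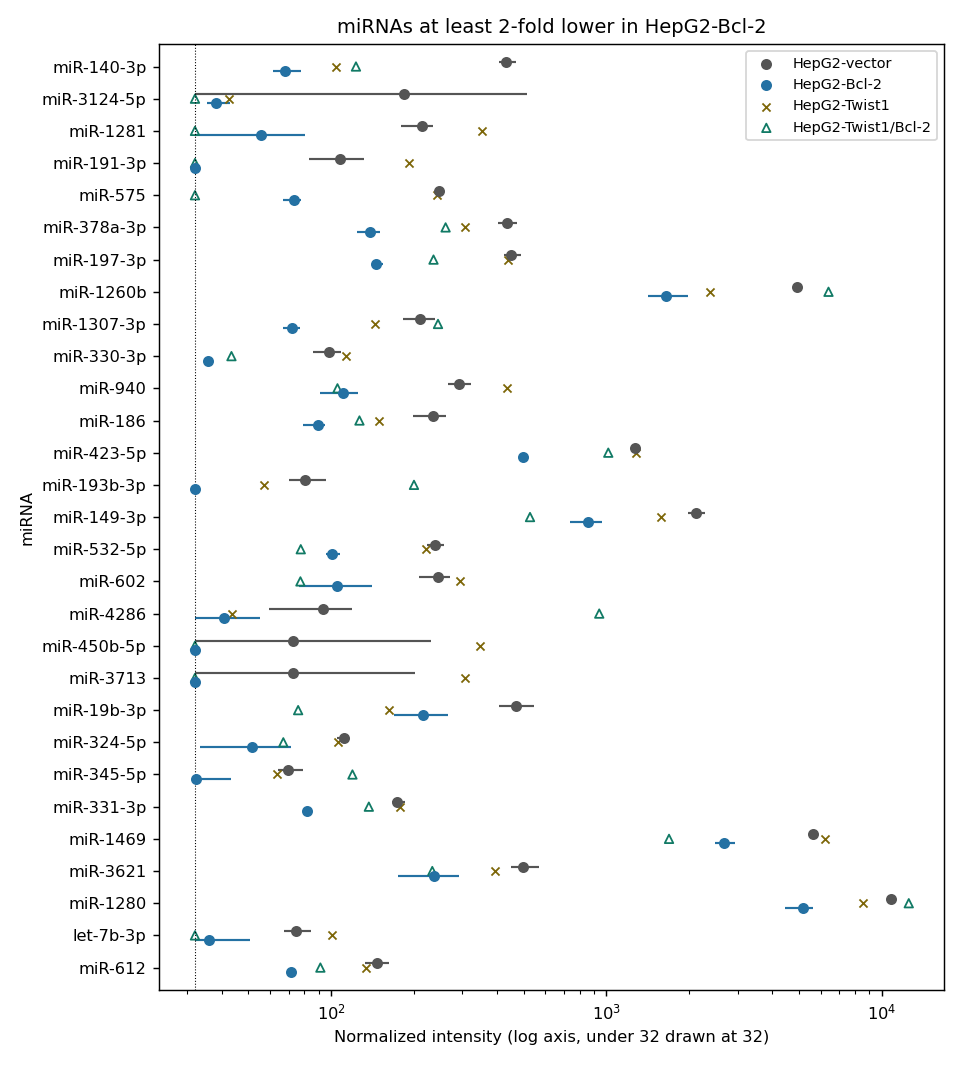
Normalized intensity (log axis, under 32 drawn at 32) of the 29 miRNAs at least 2-fold lower in HepG2-Bcl-2, in all 4 lines, drawn as in the plot of the higher miRNAs. miR-140-3p fell from 430.4 to 67.9, and the long bars of miR-3124-5p, miR-450b-5p and miR-3713 in HepG2-vector come from 1 bright spot each.

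Calls were counted by brightness. Values under 32 were set to 32, so a miRNA whose brighter value was under 64 could not be called. The count of the dimmest class is limited by this rule. Among the 142 miRNAs whose brighter value was from 32 to under 100, 2 were higher and 7 lower. Among the 86 from 100 to under 1000, 12 were higher and 17 lower. Among the 74 at 1000 or more, 6 were higher (miR-146a-5p, miR-1246, miR-29a-3p, miR-3613-3p, miR-125b-5p and miR-221-3p) and 5 lower (miR-1280, miR-1469, miR-1260b, miR-149-3p and miR-423-5p). The 10 miRNAs with the highest mean signal of both lines all lay within 2-fold. They included miR-23a-3p at 21876 and 25321, let-7a-5p at 14266 and 17537, let-7i-5p at 13484 and 18909, and miR-21-5p, a widely expressed oncogenic miRNA, at 15968 and 25933 (log2 0.70 ± 0.09). The called miRNAs nearest to the 2-fold line were miR-221-3p at a log2 difference of 1.01, miR-612 at -1.04 and let-7b-3p at -1.05. The nearest ones not called were miR-574-5p and miR-483-5p, both at 0.98, miR-572 at -0.99 and miR-3195 at -0.98.

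Groups of related miRNAs were then described, each to be read beside the median of -0.05 over all 302, of which 6.62% were called higher and 9.6% lower. Of 18 miRNAs known to pair with BCL2, 14 were measured, 4 were called higher and 0 lower, where 6.62% and 9.6% of all 302 were, and the median log2 difference was 0.22. The 4 were miR-424-5p, miR-200b-3p, miR-365a-3p/miR-365b-3p and miR-125b-5p. This list, too, was chosen with earlier results of these data known, and its count carries no test. The median G and C share of its measured members was 43.5%, against 50% over all 302, and its part in this was not tested. With a line on G and C share removed, miR-365a-3p/miR-365b-3p was at 0.85. The classical members were close to equal, with miR-15a-5p at 124 and 122 in HepG2-vector and HepG2-Bcl-2, miR-15b-5p at 3714 and 4041, and miR-16-5p at 5163 and 6475. miR-181a-5p was at 609 and 598 and miR-181b-5p at 487 and 461. miR-34a-5p, which is induced by p53 and pairs with BCL2, was at 249 and 139.7, a log2 difference of -0.84 ± 0.15 that did not reach 2-fold. Of 9 p53-induced miRNAs, 4 were measured and 0 were called either way, with a median of -0.20. miR-192-5p, which is also frequent in liver, was at 365 and 369.

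The let-7 family, which restrains growth and keeps cells differentiated, had 9 measured members of 9 and 0 calls. Its median was 0.30, with 8 of 9 above 0. The median G and C share of the family was 40.9%, against 50% over all 302, and its part in this was not tested. let-7e-5p was highest, at 3636 and 5426 (log2 0.58 ± 0.39), and let-7b-5p was the only one below 0 (log2 -0.13 ± 0.19). Of 17 strands from the miR-17/92 clusters and their paralogs, 14 were measured, 0 were higher and 1, miR-19b-3p, was lower, with a median of -0.05. miR-17-5p was at 4304 and 4288, miR-20a-5p at 5538 and 6296, and miR-92a-3p at 8701 and 9695. miR-18a-5p was at 517 and 311 (log2 -0.73 ± 0.16). In this cluster the strands encoded on chromosome 13 ran from a log2 difference of 0.19 to one of -1.12. miR-19b-3p, at -1.12, and miR-92a-3p can also come from genes on chromosome X.

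miR-26a-5p was at 4788 and 7725 (log2 0.69 ± 0.04) and miR-26b-5p, a miRNA that the study examined further, at 918 in HepG2-vector and 1334 in HepG2-Bcl-2, beside 651 in HepG2-Twist1 and 2873 in the line with both plasmids. Its log2 difference between HepG2-Bcl-2 and HepG2-vector was 0.54 ± 0.13, larger than its spot spread and under 2-fold. The miR-30 family had 5 measured members and 0 calls (median 0.24), the miR-320 group 5 and 0 (median 0.19), the miR-23/27/24 clusters 5 and 0 (median -0.13), and miR-181 had 4 and 0 (median 0.02). Of the 9 members of the group of miR-15/16 with miR-103a and miR-107, 8 were measured and 1, miR-424-5p, was called higher. The miR-99/100 and miR-125 group had 5 measured members and 1 called higher, miR-125b-5p, with miR-125a-5p at 968 and 1582 (log2 0.71 ± 0.24) and miR-100-5p at 1438 and 2299 (log2 0.68 ± 0.30). Of 5 oncogenic miRNAs, 2 were called higher, miR-155-5p and miR-221-3p. Of 32 members of the imprinted cluster at 14q32, only 2 reached 32, and neither was called.

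Entries derived from tRNA, snRNA or rRNA had 8 measured members of 17 listed, of which 12 were on the array, with 1 higher (miR-1246) and 2 lower, and a median of -0.69. miR-1260b was at 4939 in HepG2-vector and 1645 in HepG2-Bcl-2, beside 2380 in HepG2-Twist1 and 6413 in the line with both plasmids, 3.00-fold lower in HepG2-Bcl-2 than in HepG2-vector (log2 -1.59 ± 0.25). miR-1280 was at 10858, 5175, 8588 and 12553 in the same order, 2.10-fold lower. miR-720 was at 10113 in HepG2-vector and 6368 in HepG2-Bcl-2 and miR-663a at 7189 and 3834, both lower and under 2-fold. With miR-1246 apart, all measured members of this list had log2 differences below 0 (7 of 8). The median G and C share of its measured members was 68.6%, against 50% over all 302, and its part in this was not tested.

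Of 10 liver-enriched miRNAs, 6 were measured, with 0 higher and 1 lower (miR-378a-3p) and a median of -0.31. miR-122-5p, the defining miRNA of hepatocytes, was under 32 in all 4 lines, at 9.91 in HepG2-vector and 13.5 in HepG2-Bcl-2. Of 5 hepatocyte markers, 3 reached 32 in each of HepG2-vector and HepG2-Bcl-2, with summed levels of 549 and 536. Of 4 muscle markers, 3 reached 32 in HepG2-Bcl-2 and 0 in HepG2-vector, with summed levels of 47.0 and 136. They were miR-1-3p at 35.9, miR-133a-3p at 47.9 and miR-133b at 45.7. miR-126-3p, an endothelial marker, was at 147 and 230.5. Of 4 neuron markers, 2 reached 32 in HepG2-vector and 3 in HepG2-Bcl-2, with summed levels of 1068 and 959 that were mostly miR-128-3p, while the defining miR-124-3p was at 14.6 and 14.2. The 5 miRNAs of mesenchyme and the 7 of pluripotent cells were under 32 in both lines, with summed levels of 49.95 and 70.6 for mesenchyme and of 98.3 and 18.3 for pluripotent cells. None of these marker miRNAs was called, and their part in the differences was not tested.

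The strands of a hairpin were compared where both were measured, which held for 37 hairpins. Hairpins that share both strands, MIR9-1, MIR9-2 and MIR9-3, were counted separately. Both strands were called the same way in 1 of them, MIR424, and 1 strand alone was called in 6, MIR149, MIR191, MIR193B, MIR29B2, MIR532 and MIRLET7B. A star in the array's names is the older mark for a passenger strand. Of 37 measured strands with a star, 2 were called higher and 3 lower, beside 6.62% and 9.6% of all 302. Their median was -0.29, beside -0.05 over all 302.

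**Figure D4:**
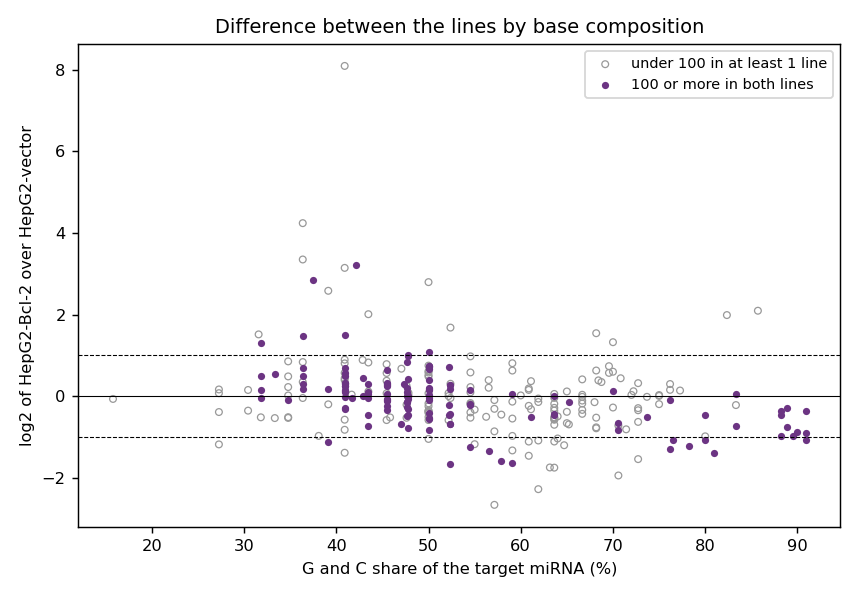
Log2 difference between HepG2-Bcl-2 and HepG2-vector (y axis) of the 302 miRNAs against the G and C share of the target in % (x axis); filled points are the 131 that reached 100 in both lines, and dashed lines mark a 2-fold difference. The points of the G and C rich miR-940, miR-149-3p and miR-1469 lie at -1.39, -1.30 and -1.08.

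Base composition went with the direction of the differences. The median G and C share was 41.5% in the 20 higher miRNAs, 61.9% in the 29 lower ones and 50% over all 302. Of the lower miRNAs, 17 of 29 (58.6%) had a share of 60% or more, as did 4 of the 20 higher ones and 102 of the 302 (33.8%). The 4 higher ones were miR-1181, miR-4258, miR-4298 and miR-1233-3p. Across the 131 miRNAs that reached 100 in both lines, the log2 difference and the share had a Pearson's r of -0.52 and a Spearman's rho of -0.58. This is a correlation across miRNAs measured in the same hybridizations, which are not independent replicates. Over the same 131 miRNAs, rho was 0.06 for HepG2-Twist1 over HepG2-vector, which shared array 1, and 0.00065 for HepG2-Twist1/Bcl-2 over HepG2-Bcl-2, which shared array 2. For HepG2-Twist1/Bcl-2 over HepG2-Twist1, again across the arrays but with the dyes reversed, it was -0.31. The relation was thus seen between the arrays and hardly within them, and the array cannot be told apart from Bcl-2. miR-146a-5p, miR-200b-3p, miR-424-5p and miR-1246 had shares of 36.4% to 42.1%.

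**Figure D5:**
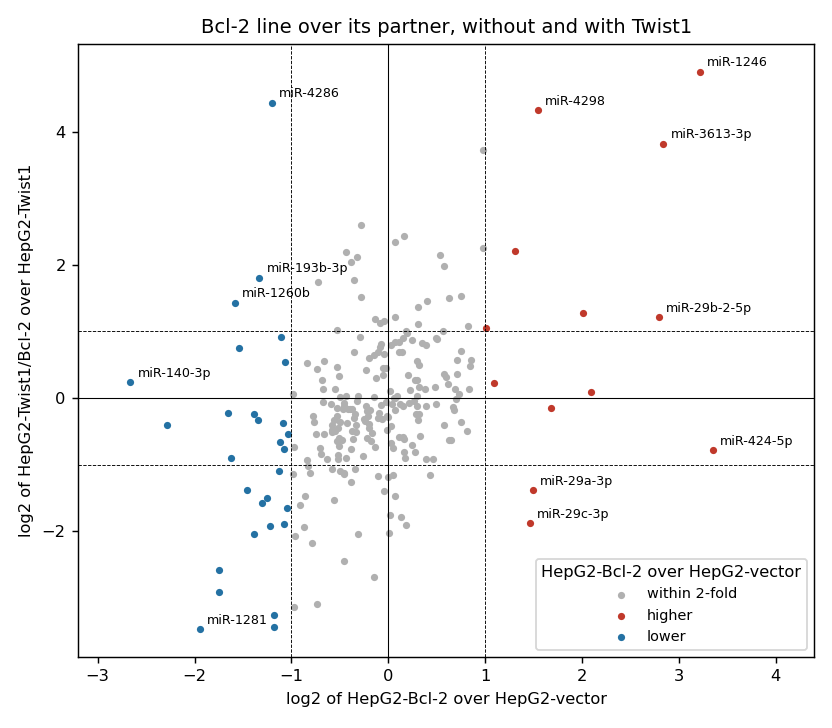
Log2 of HepG2-Bcl-2 over HepG2-vector (x axis) against log2 of HepG2-Twist1/Bcl-2 over HepG2-Twist1 (y axis) for the 257 of the 302 miRNAs at 32 or more in at least 1 line of each pair; dashed lines mark a 2-fold difference and colours the call without Twist1. miR-1246 and miR-3613-3p lie at the upper right, and miR-29a-3p and miR-29c-3p at the lower right.

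The pair of lines with Twist1 gave a second contrast with Bcl-2. It used other samples, with the dyes the other way round, but ran across the same arrays. Among 290 miRNAs at 32 or more in HepG2-Twist1/Bcl-2 or HepG2-Twist1, 2-fold calls numbered 36 higher in the line with both plasmids (12.4%) and 45 lower (15.5%), or 27.9% either way. Of the 20 miRNAs higher without Twist1, 7 were also higher with Twist1, which is 35% of the 20 and 19.4% of the 36. They were miR-1246, miR-3613-3p, miR-29b-2-5p, miR-10a-5p, miR-4298, miR-365a-3p/miR-365b-3p and miR-221-3p. Of the 29 lower without Twist1, 13 were also lower with Twist1, which is 44.8% of the 29 and 28.9% of the 45. They included miR-1281 at log2 differences of -1.95 and -3.47, miR-575 at -1.75 and -2.92, miR-940 at -1.39 and -2.05, miR-149-3p at -1.30 and -1.58, miR-532-5p at -1.25 and -1.51, and miR-19b-3p at -1.12 and -1.10. The 13 also held miR-450b-5p at -1.18 and -3.44 and miR-3713 at -1.18 and -3.26, with 1 bright spot each in HepG2-vector. Among the 7 higher, miR-29b-2-5p was carried by 1 bright spot in HepG2-Bcl-2. Both shares, which count these members, lay above the background of 12.4% and 15.5% in the pair with Twist1. However, the arrays were the same in both contrasts, and the relation with G and C share was present in both. The part of the arrays in this cannot be told apart. miR-140-3p, at -2.67 without Twist1, was at 0.24 with it, and miR-378a-3p was at -1.65 and -0.23.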

How the data were processed

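The authors' service provider hybridised 4 samples to 2 two-colour miRNA arrays and deposited a scanner table for each, with a spot intensity and no background, and a table of normalized intensity values; per the methods these followed background subtraction and LOWESS normalization. The methods' filter at 32 was a later step, and the deposited table holds all 1212 miRNAs. Extraction is described differently in the main methods (Trizol and a miRNA kit) and in the labels (a total RNA kit). The scanner columns hold intensity values with commas as digit separators, as the authors deposited them. Each deposited column followed its own scanner channel (r of 0.997 to 0.9996 on the log2 scale, miRNAs at 100 or more). Here log2 differences were taken of the normalized intensity, with values under 32 set to 32; a fold with 1 line under 32 is a bound, the brighter value over 32. Spots had the median spot of the dimmer miRNAs of their channel subtracted and were scaled so that their mean is the deposited value; where that value was under 32 it stood for each spot. Probe targets gave names through RefSeq (GRCh38.p14): 256 of the 302 matched whole, 6 matched at the start with another length, and 40 kept the array's name or one set by hand. Named miRNAs were the 12 highest and 12 lowest at 32 or more in both and 100 or more in one, up to 10 bounds a side, the 10 brightest, up to 6 members of each of 19 lists, miR-26b-5p and those next to the 2-fold line; other called miRNAs were named after their values were seen. Members and lists were chosen with earlier results of these data known. The calculation of the calls was tested on simulated data, which gives no error rate for these samples. R 4.3.3 with limma 3.58.1, Python 3.11.15, numpy 2.4.6, pandas 2.3.3, scipy 1.17.1 and statsmodels 0.14.6 were used. The number of arrays limits the precision. Alternatives were other minimums, folds and spots, scanner values under 4 normalizations, centring, both pairs averaged, a t-test over repeat spots and a correction for G and C share.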

Additional observations from a re-analysis of the deposited data

Results flagged for a closer look

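In 5 miRNAs the Bcl-2 line was at least 2-fold from its partner in both pairs, but in opposite directions without and with Twist1. With 1 sample per line the difference was not tested. They were 2 of the 20 higher without Twist1 (10%) and 3 of the 29 lower (10.3%). In the pair with Twist1, 15.5% of all 290 were lower and 12.4% higher, so neither share lay above that background. miR-29a-3p was at a log2 difference of 1.49 without Twist1 and -1.38 with it, and miR-29c-3p at 1.46 and -1.88. In both, HepG2-Bcl-2 was the highest of the 4 lines and HepG2-Twist1/Bcl-2 the lowest. miR-4286 was at -1.20 and 4.43, with 942 in HepG2-Twist1/Bcl-2 and 40.7 to 93.7 in the other lines. miR-193b-3p was at -1.33, a bound, and 1.81, and miR-1260b at -1.59 and 1.43. For these 3, HepG2-Bcl-2 was the lowest of the 4 lines and HepG2-Twist1/Bcl-2 the highest.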

How the results depend on the processing

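With 20 higher and 29 lower miRNAs as reported, a minimum of 16 gave 41 and 56, a minimum of 100 gave 13 and 17, a 1.5-fold call 46 and 59, and a 3-fold call 12 and 8. Scanner values less the empty spots and not scaled gave 13 and 95, where the median of all moved to -0.76 (12.04% of calls higher, against 40.8%). The share of calls higher was 50% (28 and 28) on scanner values after normexp, loess and quantile steps. Removing a line on G and C share, chosen after the data were seen, gave 24 higher and 19 lower (55.8% higher), of which 18 and 17 were among those reported; miR-221-3p and miR-365a-3p/miR-365b-3p were lost among the higher, and miR-149-3p, miR-324-5p, miR-331-3p, miR-345-5p, miR-602, miR-612, miR-940, miR-1280, miR-1307-3p, miR-1469, miR-3621 and miR-4286 among the lower. The methods' t-test compared groups of at least 2 samples, which these lines do not have. Run over repeat spots at its threshold of 0.01 it compares the 2 hybridised samples and not the lines, and gave 25 and 52, and 15 and 33 after Benjamini-Hochberg adjustment; of the reported calls 11 and 18 passed that. Leaving out a repeat spot gave 21 to 22 higher and 26 to 29 lower, and without repeat spot 2 miR-3124-5p turned to 0.30. In the mean over both pairs, which hold opposite dyes, miR-4286 turned to 1.62, miR-193b-3p to 0.24 and miR-29c-3p to -0.21. There miR-29a-3p stood at 0.05, miR-1260b at -0.08 and miR-345-5p at -0.10. Other calls also came under 2-fold in that mean, among them miR-378a-3p at -0.94, miR-423-5p at -0.84, miR-186 at -0.81 and miR-125b-5p at 0.66. The cause was not tested. Of the calls, 7 higher (miR-146a-5p, miR-200b-3p, miR-424-5p, miR-1246, miR-146b-5p, miR-3613-3p and miR-10a-5p) and 9 lower (miR-140-3p, miR-1281, miR-575, miR-378a-3p, miR-197-3p, miR-1260b, miR-186, miR-423-5p and miR-532-5p) held under all 11 of the other minimums, value sets, left-out spots and corrections; the mean over both pairs is not among these. Most miRNAs were dim, so those under 32 have only a bound. No paired analysis was possible because each line had 1 sample.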
